A study of Mus musculus with 16 samples.

Results

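The genes described here are 9 members of the matricellular and crosslinking group of fibrosis genes: Postn, Cilp, Thbs1, Thbs4, Tnc, Sparc, Timp1, Lox and Fn1. They were taken by symbol from the 55487 genes of the deposited count tables. Each symbol matched 1 row, and all 9 were among the 17813 genes that passed a filter on low counts and were tested. RNA was sequenced from left ventricular tissue, cut midway between base and apex, of 8 multiparous and 8 virgin C57Bl/6J mice. The multiparous mice were 24 months old and had been through more than 3 pregnancies. The virgin mice were of the same strain and age and had never been pregnant. No mouse of either group was treated or operated on, and blood was washed out of each heart with cold buffered saline while it was still in the chest. The labels do not give the time since the last pregnancy. The names of the multiparous libraries carry 1 of 2 codes, MP in 4 and P in 4, which the labels leave unexplained. The virgin libraries all carry another code, so that parity and whatever that code marks cannot be told apart. The series asks what past pregnancies leave in the heart, and these genes bear on the fibrotic side of that question.

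Matricellular proteins are secreted into the matrix but, unlike collagen, do not build it. They tell cells how to behave there by binding integrins, growth factors, proteases and collagen itself. In the adult heart most of them are scarce and come back after infarction, under pressure load and in fibrosis, when fibroblasts turn into matrix-secreting cells under transforming growth factor beta. Lysyl oxidase then links collagen and elastin chains, which makes the matrix stiff and hard to digest, while tissue inhibitors of metalloproteinases slow its breakdown. Whole tissue was sequenced, so fewer cells of a type and less RNA per cell cannot be told apart in any value below.

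Sequencing gave 34560606 to 58890976 gene counts per library for 15 hearts, and 228325238 for virgin 8. All 6 cardiomyocyte markers were detected and summed to 41560 to 48750 CPM, that is, counts scaled to a common library size, in multiparous and 39310 to 52740 CPM in virgin libraries. Markers of resident fibroblasts, a known source of most of the 9 transcripts, summed to 1477 to 2174 CPM (median 1899) in multiparous and 1343 to 1856 CPM (median 1546) in virgin libraries, with 10 of 11 markers at a higher multiparous mean. Kidney tubule markers, which do not belong in a heart, summed to 10.5 to 36.6 CPM (median 17.2) in multiparous and 21.7 to 129.6 CPM (median 60.5) in virgin libraries, with 0 of 17 markers higher in multiparous hearts and none at 0. Valve, tendon and cartilage markers lay at 14.7 to 24.4 against 13.6 to 24.0 CPM.

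Compared per kilobase of exon, the 9 genes spanned a wide range of levels. Sparc, a collagen-binding glycoprotein that is made constitutively by stromal and endothelial cells, stood far above the rest at 52.6 ± 8.7 CPM per kilobase in the multiparous and 56.7 ± 7.2 in the virgin group (SD, n = 8 each). Fn1, fibronectin, the provisional matrix on which collagen is laid down, followed at 7.05 ± 0.89 against 6.67 ± 0.97 CPM per kilobase. Postn (5.04 against 5.78), Thbs1 (3.66 against 5.00) and Cilp (3.46 against 4.2) formed a middle tier, and Thbs4 (1.51 against 1.40), Timp1 (1.36 against 1.49), Lox (0.750 against 0.776) and Tnc (0.359 against 0.408) a low one, all as mean CPM per kilobase. Tnc, a tenascin that is nearly silent in healthy adult myocardium, was lowest. The order of neighbours held in 14 to 16 of 16 libraries except for Thbs1 over Cilp (11 of 16) and Thbs4 over Timp1 (8 of 16), whose levels did not separate. In GRCm38, Postn (ENSMUSG00000027750.16) lies on chromosome 3 at 54361109 to 54391037, Cilp (ENSMUSG00000042254.14) on chromosome 9 at 65265180 to 65280605 and Timp1 (ENSMUSG00000001131.11) on chromosome X at 20870166 to 20874735, all on the plus strand. On the minus strand lie Thbs4 (ENSMUSG00000021702.7, chromosome 13, 92751590 to 92794818), Tnc (ENSMUSG00000028364.15, chromosome 4, 63959785 to 64047015), Sparc (ENSMUSG00000018593.13, chromosome 11, 55394500 to 55423183), Fn1 (ENSMUSG00000026193.15, chromosome 1, 71585520 to 71653200) and Lox (ENSMUSG00000024529.14). Annotated genes on the opposite strand share 176 exonic bases with Tnc, 30 with Lox and 292 with Fn1, and averaged at most 0.0470 CPM.

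Of the 9 members, 6 had an entry in the RefSeq promoter table (build GRCm38.p6). The 250 bases before the start are given for 5 of these: Timp1, Tnc, Postn, Cilp and Thbs4. Each is written 5′ to 3′ on the strand of its gene. The window of Sparc overlapped annotated exons and was left out. All 5 take part in pairs that vary together over hearts, described further on. The windows lie, for Timp1, at chrX:20869916-20870165 (plus strand), for Tnc at chr4:64047016-64047265 (minus strand), for Postn at chr3:54360857-54361106 (plus strand), for Cilp at chr9:65264930-65265179 (plus strand) and for Thbs4 at chr13:92794819-92795068 (minus strand). Capitals mark 4 short motifs searched on both strands: TATAAA, the AP-1 motif TGANTCA, the SMAD box CAGACA and the TEAD motif GGAATG. The CArG box of serum response factor was searched as well.
Timp1: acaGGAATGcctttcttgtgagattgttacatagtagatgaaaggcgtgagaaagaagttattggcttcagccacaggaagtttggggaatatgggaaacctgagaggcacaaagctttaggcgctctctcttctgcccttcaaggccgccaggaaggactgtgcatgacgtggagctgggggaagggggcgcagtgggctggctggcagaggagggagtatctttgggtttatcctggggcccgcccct
Tnc: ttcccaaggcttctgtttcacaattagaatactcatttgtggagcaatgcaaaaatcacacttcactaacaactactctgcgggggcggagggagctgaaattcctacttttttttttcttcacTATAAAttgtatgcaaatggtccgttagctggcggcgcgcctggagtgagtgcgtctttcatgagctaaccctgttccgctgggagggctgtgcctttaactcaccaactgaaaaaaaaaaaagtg
Postn: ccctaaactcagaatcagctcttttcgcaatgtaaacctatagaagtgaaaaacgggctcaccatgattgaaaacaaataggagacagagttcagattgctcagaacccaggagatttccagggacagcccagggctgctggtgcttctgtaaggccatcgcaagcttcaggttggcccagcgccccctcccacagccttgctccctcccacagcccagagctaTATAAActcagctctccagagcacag
Cilp: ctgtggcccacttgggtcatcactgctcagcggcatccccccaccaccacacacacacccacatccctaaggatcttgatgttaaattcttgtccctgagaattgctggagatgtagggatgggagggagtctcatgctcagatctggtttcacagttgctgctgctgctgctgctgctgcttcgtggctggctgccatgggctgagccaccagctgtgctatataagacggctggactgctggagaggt
Thbs4: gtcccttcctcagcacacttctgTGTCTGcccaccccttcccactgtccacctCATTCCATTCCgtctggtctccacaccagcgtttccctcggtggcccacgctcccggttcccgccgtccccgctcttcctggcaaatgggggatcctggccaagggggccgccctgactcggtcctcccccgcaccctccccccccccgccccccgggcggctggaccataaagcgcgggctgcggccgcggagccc
TATAAA stood 26 bases before the start in Postn and 126 bases before it in Tnc. It occurs in 12.4% of the 32851 promoter windows of the same length. GGAATG stood 247 bases before the start in Timp1 and at 2 places that overlap in Thbs4, 197 and 192 bases before it on the strand opposite to the gene, and it occurs in 12.6% of all windows. CAGACA, found in 17.1% of all windows, stood at 1 place in Thbs4, 227 bases before the start and also on the opposite strand. TGANTCA (6.75% of windows) and the CArG box (1.47%) were in none of the 5, and Cilp held none of the motifs as searched. Variants of TATAAA, such as tatataag in the Cilp window, were not searched. No motif was shared by Timp1 and Tnc or by Cilp and Thbs4.

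None of the 9 genes differed past the threshold between multiparous and virgin hearts. In edgeR's quasi-likelihood test with Benjamini-Hochberg adjustment over all 17813 genes, 0 of 9 members had an adjusted p under 0.05, in a comparison that called 0.0112% of all genes. DESeq2 and limma voom also called 0 of 9. At an unadjusted p under 0.05 stood 1 member, Thbs1, where 8.12% of all genes did. The multiparous mean was lower for 7 members and higher for 2, against 51.4% lower and 48.6% higher among all genes. The median log2 fold change of the 9 was −0.14, against −0.0030 over all genes tested. The groups overlapped for every member, and they did not overlap for 0.0337% of all genes. With the kidney marker sum as a covariate the direction turned for Thbs4, Tnc, Sparc, Timp1 and Lox, and with the fibroblast marker level as a covariate for Thbs4 and Fn1. The fit with fibroblast markers moved Cilp to −0.81, Postn to −0.52, Tnc to −0.45 and Timp1 to −0.39 on the log2 scale, each further below 0 and short of the threshold (edgeR adjusted p of 0.433, 0.477, 1.0 and 1.0).

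**Figure D1:**
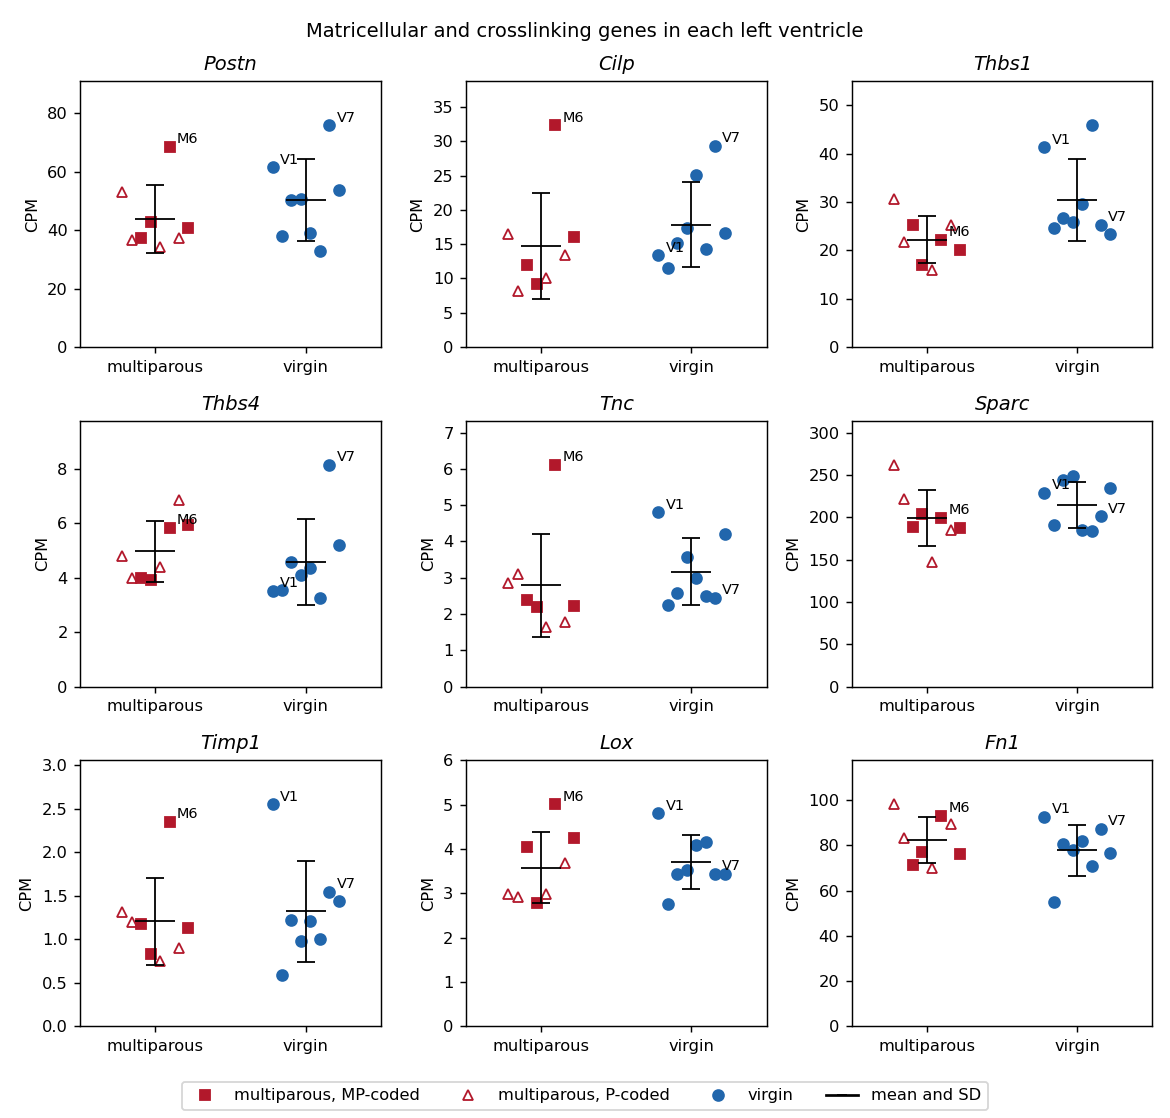
Level of each gene in CPM (y axis, from 0) in every left ventricle, multiparous hearts on the left (squares for MP-coded, open triangles for P-coded libraries) and virgin hearts on the right (circles), with the mean and SD in black. M6, V1 and V7 mark multiparous 6, virgin 1 and virgin 7. The groups overlap in every panel, and M6 is highest of all 16 for Cilp (32.3 CPM), Tnc (6.11 CPM) and Lox (5.01 CPM).

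Thbs1 was the member with the smallest p. It encodes thrombospondin 1, which activates latent transforming growth factor beta, restrains vessel growth and is stored in the granules of platelets. Its level was 15.8 to 30.6 CPM in multiparous hearts, with a median of 21.9, and 23.4 to 45.9 CPM in virgin hearts, with a median of 26.4. Of the 8 multiparous libraries, 5 lay below the lowest virgin one and 7 below the virgin mean, while multiparous 1, 3 and 7 lay inside the virgin range. Multiparous hearts averaged 22.2 ± 4.8 CPM and virgin hearts 30.3 ± 8.5 CPM (SD, n = 8 each). The difference, a log2 fold change of −0.45 (SE 0.15, 95% interval −0.77 to −0.12), did not pass over all genes (edgeR adjusted p = 0.393). Thbs1 ranked 445th of the 17813 genes by p. Its gene (ENSMUSG00000040152.8) lies on chromosome 2 at 118111876 to 118127133, plus strand, in GRCm38. Of its 6073 exonic bases, 208 lie opposite Gm29233, which averaged 0.0003 CPM.

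Virgin 6 and virgin 1 were the highest libraries for Thbs1, at 45.9 and 41.4 CPM. They were also the highest in platelet markers (Ppbp, Pf4, Itga2b and 4 others), which summed to 39.7 and 31.1 CPM there. Over all hearts that sum was 10.5 to 22.8 CPM (median 13.4) in multiparous and 7.85 to 39.7 CPM (median 10.2) in virgin libraries, and 2 of 7 markers had a higher multiparous mean. Thbs1 was compared with 13842 other genes, and predicted or clone-named ones (such as Gm or Rik names) were passed over. With group means removed, 2 of the 3 genes whose log2 CPM went most like Thbs1 over the 16 libraries were on the platelet list. They were Itga2b (Pearson r = 0.849), the integrin chain of the platelet fibrinogen receptor, and Ppbp (r = 0.846), a platelet chemokine precursor, after Nrgn (neurogranin, r = 0.881). With the platelet sum as a covariate, a fit added after this was seen, the log2 fold change of Thbs1 was −0.44 (SE 0.08, edgeR adjusted p = 0.0689). Adjusted p ranged from 0.0689 to 1.0 over its 31 alternatives. With the kidney sum as a covariate the log2 fold change was −0.20 (edgeR adjusted p = 0.933). Because multiparous hearts had less of it, kidney RNA and parity cannot be told apart here.

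**Figure D2:**
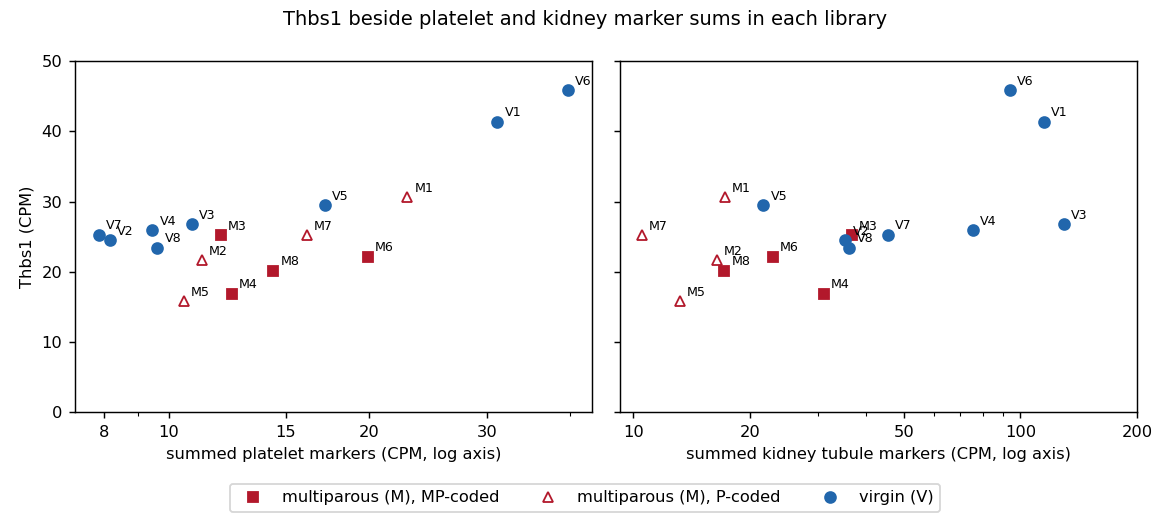
Thbs1 in CPM (y axis, from 0) against the summed CPM of platelet markers (left) and of kidney tubule markers (right), both on log axes, 1 point per library. M marks multiparous hearts (squares MP-coded, open triangles P-coded) and V virgin hearts (circles). V6 and V1 are highest on both the Thbs1 and the platelet axis, and all but 1 of the virgin libraries lie to the right of 35 CPM on the kidney axis.

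Thbs4, the thrombospondin that muscle and tendon cells make under load and that protects the heart under pressure in mice, had a mean on the other side. It measured 3.93 to 6.85 CPM (median 4.60) in the multiparous group and 3.26 to 8.15 CPM (median 4.22) in the virgin group. Of the multiparous libraries, 4 lay above and 4 below the virgin mean, and the highest value of all was in virgin 7. On the log2 scale the fold change was 0.11 (SE 0.17, 95% interval −0.26 to 0.47, edgeR adjusted p = 0.926). Without virgin 7 it was 0.28 (edgeR adjusted p = 0.537) and without multiparous 7 it was 0.03, and leaving out multiparous 6 or 8 or virgin 1, 2 or 6 gave 0.05 to 0.07.

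Among the proteins that instruct cells, Postn and Cilp mark activated cardiac fibroblasts. Postn, periostin, promotes collagen fibril assembly and is the classical label of the myofibroblast after injury. It measured 34.2 to 68.5 CPM (median 39.2) in the multiparous group and 32.9 to 75.9 CPM (median 50.4) in the virgin group, so that the ranges nearly coincided while the medians differed. In 6 of 8 multiparous hearts it was below the virgin mean. This gave a log2 fold change of −0.20 (SE 0.17, 95% interval −0.55 to 0.15, edgeR adjusted p = 0.819), which was −0.32 without multiparous 6 (edgeR adjusted p = 0.682) and −0.09 without virgin 7 (edgeR adjusted p = 0.906). Cilp, cartilage intermediate layer protein, binds transforming growth factor beta and is made by fibroblasts of loaded ventricles. It measured 8.23 to 32.3 CPM (median 12.7) in the multiparous group and 11.5 to 29.3 CPM (median 15.9) in the virgin group. Multiparous 6 lay above every virgin library and 3 multiparous libraries below every virgin one. The log2 fold change was −0.28 (SE 0.25, 95% interval −0.81 to 0.25, edgeR adjusted p = 0.836), and it was −0.55 without multiparous 6 (edgeR adjusted p = 0.502) and −0.14 without virgin 7 (edgeR adjusted p = 0.912).

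Tnc, tenascin C, loosens cell adhesion and is switched on at the border of damaged muscle. It measured 1.65 to 6.11 CPM (median 2.30) in the multiparous group and 2.25 to 4.8 CPM (median 2.80) in the virgin group. Leaving out multiparous 6, the multiparous libraries reached no higher than 3.10 CPM, and 4 of them lay below every virgin library. On the log2 scale Tnc differed by −0.19 (SE 0.24, 95% interval −0.70 to 0.31, edgeR adjusted p = 0.889), and by −0.46 without multiparous 6 (edgeR adjusted p = 0.558). It differed by −0.09 without virgin 1, by −0.11 without multiparous 5 and by −0.12 without multiparous 7 or virgin 8. Sparc measured 148 to 262 CPM (median 194) in the multiparous group and 184 to 248 CPM (median 215) in the virgin group, with both the highest and the lowest library multiparous. A log2 fold change of −0.11 (edgeR adjusted p = 0.832) had an SE of 0.10 and a 95% interval of −0.31 to 0.09, which runs from 0.808-fold to 1.07-fold. It was −0.17 without multiparous 1 and −0.05 without multiparous 5.

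The genes that link and preserve matrix had overlapping levels in the 2 groups, as did all but 0.0337% of the genes tested. Lox, lysyl oxidase, measured 2.78 to 5.01 CPM (median 3.34) in the multiparous group and 2.77 to 4.8 CPM (median 3.48) in the virgin group, with a log2 fold change of −0.05 (SE 0.13, 95% interval −0.33 to 0.23, edgeR adjusted p = 0.964). Fn1 measured 70.0 to 98.1 CPM (median 80.3) in the multiparous group and 55.0 to 92.6 CPM (median 79.3) in the virgin group, with a log2 fold change of 0.08 (SE 0.09, 95% interval −0.11 to 0.27, edgeR adjusted p = 0.873). The interval for Fn1 spans 0.926-fold to 1.21-fold and that for Lox, the wider of the 2, 0.797-fold to 1.17-fold. Leaving out 1 library, Fn1 was as low as 0.02 (without virgin 2) and Lox lay between −0.13 (without multiparous 6) and 0.01 (without virgin 1) on the log2 scale. Timp1, the inducible inhibitor of metalloproteinases and a circulating marker of cardiac fibrosis, was scarce. It measured 0.754 to 2.35 CPM (median 1.15) in the multiparous group and 0.593 to 2.55 CPM (median 1.22) in the virgin group, from as few as 31 and 24 counts. Its highest libraries were multiparous 6 and virgin 1, 1 in each group. The log2 fold change of −0.14 (SE 0.26, edgeR adjusted p = 0.942) has a 95% interval from 0.623-fold to 1.33-fold, and was −0.34 without multiparous 6, −0.24 without virgin 2 and 0.06 without virgin 1. Without multiparous 4, 5 or 7 it lay between −0.08 and −0.06.

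**Figure D3:**
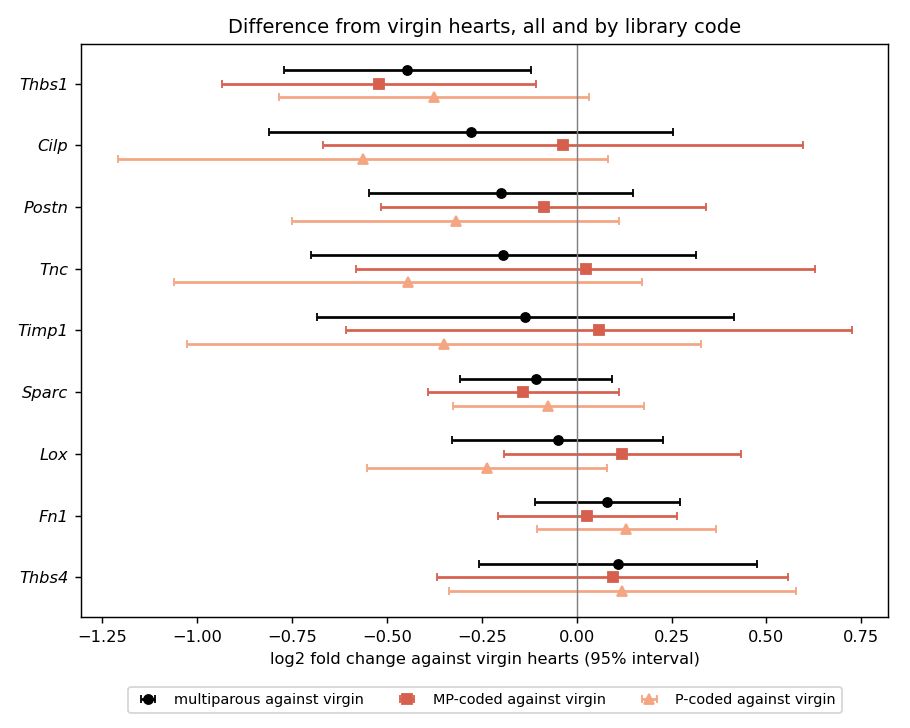
Log2 fold change against virgin hearts (x axis) with its 95% interval for all multiparous libraries (black), for the MP-coded (squares) and for the P-coded ones (triangles), which share the virgin libraries. Thbs1 lies at −0.45, −0.52 and −0.38, and of the other members Cilp differs most between the codes, at −0.04 and −0.56.

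No member passed between the 2 library codes of the multiparous group either. With MP set against P in the same kind of fit, 0 of 9 passed (0.0112% of all genes called), by DESeq2 and limma voom as well, and 0 of 9 had an unadjusted p under 0.05, where 9.18% of all genes did. Means were higher in MP-coded hearts for 5 members and lower for 4, against 49.6% and 50.4% of all genes. Lox came nearest: it measured 2.78, 4.05, 4.25 and 5.01 CPM in MP-coded hearts and 2.92, 2.98, 2.99 and 3.69 CPM in P-coded hearts. In 3 MP-coded hearts it was thus above every P-coded one, and in 1 below. The log2 fold change was 0.36 (SE 0.17, 95% interval −0.01 to 0.72, edgeR adjusted p = 0.552). Cilp was higher by 0.53 (SE 0.35) and Tnc by 0.47 (SE 0.33) in MP-coded hearts, with edgeR adjusted p of 0.684 and 0.712, and multiparous 6 is MP-coded. Postn was higher by 0.23 (SE 0.23) and Timp1 by 0.41 (SE 0.37), with edgeR adjusted p of 0.808 and 0.785. Without multiparous 6 the log2 fold changes between the codes were 0.04 for Cilp, −0.04 for Tnc, 0.0042 for Postn and 0.02 for Timp1, and without multiparous 1 that of Postn was 0.39. Kidney tubule markers, in multiparous hearts mostly Cubn, summed to 17.2 to 36.6 CPM in MP-coded and 10.5 to 17.2 CPM in P-coded hearts. Mesothelial markers summed to 23.9 to 40.9 CPM (median 30.1) against 7.58 to 28.8 CPM (median 11.8). The part of either in the code differences was not tested. Set beside the same virgin hearts, Postn differed by −0.09 in MP-coded and −0.32 in P-coded libraries, Timp1 by 0.06 and −0.35, and Lox by 0.12 and −0.24 (log2, all short of the threshold).

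Hearts of 1 group differed widely, and several of the 9 genes varied together from heart to heart. With group means removed, 6 of 36 pairs correlated at an adjusted p under 0.05 over the 16 libraries, all positively. The median r of the 36 pairs was 0.464, with 32 positive. Timp1 was in 4 of the 6 pairs. It went with Tnc (Pearson r = 0.804, permutation p = 0.00028, adjusted p = 0.0101; Spearman rho = 0.709, permutation p = 0.00381), with Fn1 (r = 0.771, permutation p = 0.00121, adjusted p = 0.0218; rho = 0.706, permutation p = 0.00411) and with Postn (r = 0.744, permutation p = 0.00215, adjusted p = 0.0224; rho = 0.726, permutation p = 0.00286). Timp1 and Lox (r = 0.685, permutation p = 0.00338, adjusted p = 0.0243) had a Spearman rho of 0.45 (permutation p = 0.0896). The other pairs were Cilp with Thbs4 (r = 0.685, permutation p = 0.00249, adjusted p = 0.0224; rho = 0.75, permutation p = 0.00155) and Postn with Fn1 (r = 0.675, permutation p = 0.0058, adjusted p = 0.0348; rho = 0.738, permutation p = 0.00188). Adjusted over the 36 pairs, the p of rho was 0.195 for Timp1 with Lox and 0.0296 for each of the other 5. Many genes outside the group went with a member more closely. Of 13842 other genes ordered by r with Timp1, Tnc was 29th, Fn1 71st, Postn 124th and Lox 301st. Thbs4 was 103rd for Cilp, and Fn1 was 178th for Postn. The share of all gene pairs that correlate as strongly was not computed.

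Single hearts carried part of this. Multiparous 6 was highest or second highest of the 16 for Cilp, Tnc, Lox, Postn, Timp1 and Fn1, and virgin 1 was among the highest 3 for Timp1, Tnc, Lox, Thbs1, Postn and Fn1. Both were also the hearts richest in macrophage markers, which summed to 365 CPM in multiparous 6 and 374 CPM in virgin 1, against 214 to 296 CPM in the other multiparous and 195 to 254 CPM in the other virgin hearts. The part of these cells in the member levels was not tested. At the other end, multiparous 5 was among the lowest 3 for 7 of the 9 genes. Without the 2 hearts farthest from the median of the first gene, r was 0.567 for Tnc with Timp1, 0.754 for Timp1 with Fn1, 0.655 for Postn with Timp1, 0.587 for Cilp with Thbs4 and 0.647 for Postn with Fn1, and it was 0.377 for Timp1 with Lox, which thus rests largely on multiparous 6 and virgin 1. Leaving out any single heart, 4 to 9 pairs passed. Without multiparous 6 and virgin 1 together, a choice made after seeing these values, 0 of 36 passed. With library totals in place of scaling factors 14 pairs passed, and with the 3 library codes centred in place of the 2 groups 5 did. Within each group of 8, r for Timp1 with Fn1 was 0.575 in multiparous and 0.902 in virgin hearts, and for Cilp with Thbs4 it was 0.65 and 0.788.

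**Figure D4:**
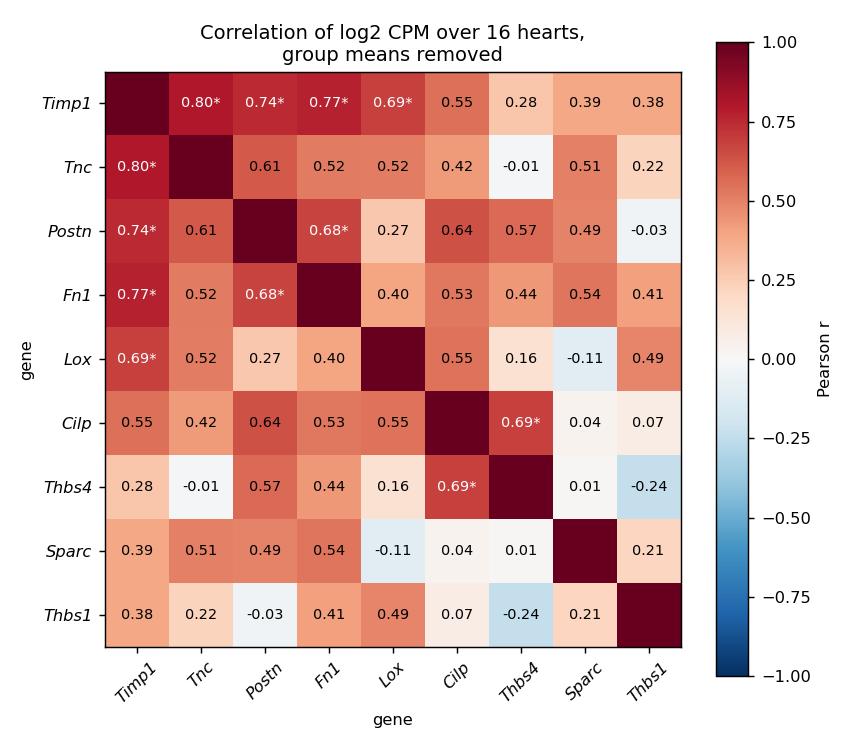
Pearson r between the 9 genes (rows and columns) of log2 CPM over 16 hearts after the mean of each group was removed, red for positive and blue for negative, with an asterisk where the permutation p adjusted over 36 pairs was under 0.05. Timp1 has 4 of the 6 marked pairs, with r of 0.804 for Tnc at the top, while Thbs1 and Sparc have none.

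No pair with Thbs1 or Sparc passed. For Thbs1, r was lowest with Thbs4, the other thrombospondin (−0.24), and −0.03 with Postn, 0.07 with Cilp, 0.21 with Sparc, 0.22 with Tnc, 0.38 with Timp1 and 0.41 with Fn1. It was highest with Lox (r = 0.490, permutation p = 0.0594, adjusted p = 0.126; rho = 0.609, permutation p = 0.0191, adjusted p = 0.0892). For Sparc, r was −0.11 with Lox, 0.01 with Thbs4, 0.04 with Cilp and 0.39 with Timp1. The 3 other pairs of Sparc lay above the median of the 36, with Fn1 (r = 0.537, permutation p = 0.0298, adjusted p = 0.0978), with Tnc (r = 0.506, permutation p = 0.0723, adjusted p = 0.145; rho = 0.632, permutation p = 0.0137, adjusted p = 0.0825) and with Postn (r = 0.495, permutation p = 0.0573, adjusted p = 0.126; rho = 0.612, permutation p = 0.0198, adjusted p = 0.0892). The 2 hearts farthest from the median of the first gene were again left out. Without multiparous 1 and virgin 6, r was 0.696 for Thbs1 with Lox. It was 0.343 for Sparc with Fn1 without multiparous 1 and 5. For Tnc with Sparc it was 0.719 without multiparous 6 and virgin 1, and for Postn with Sparc 0.787 without multiparous 6 and virgin 7. Likeness was read over 13842 other genes with a mean of at least 1 CPM, and predicted or clone-named genes were passed over. The gene most like Postn was then Bgn (r = 0.891), biglycan, a small proteoglycan of the collagen fibril. Cilp went most with Ltbp2 (r = 0.873), a latent transforming growth factor binding protein that sits on microfibrils. Timp1 went most with Ccl7 (r = 0.92), a monocyte chemokine, and both Timp1 (r = 0.883) and Tnc (r = 0.891) had Oasl1, an interferon-induced gene, among their 3 nearest. Tnc also had Adamts2 (r = 0.867), the protease that trims the ends of procollagen, and Cep57l1 (r = 0.833). The remaining gene of the 3 nearest to Timp1 was Sass6 (r = 0.907), above Oasl1. Sparc went most with Tpm4 (r = 0.859), a nonmuscle tropomyosin, Thbs4 with Fzd9 (r = 0.905), a Wnt receptor, Lox with Slc43a1 (r = 0.926), an amino acid transporter, and Fn1 with Rhog (r = 0.871), a small GTPase. These r describe 16 libraries that share depth and composition, and were picked from the highest among the 13842 genes, apart from those passed over.

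Relatives and partners of the 9 genes were read from 11 lists, and 0 of their 119 other tested genes passed in multiparous hearts. An unadjusted p under 0.05 was found for 21 of them (17.6%), against 8.12% of all genes. The lists were chosen with earlier results of these data known, so that share is a description and not a test. DESeq2, which called 130 of all 17813 genes here, called 4 of the 119 (Pcolce2, Sdc4, Spp1 and Itga9) and limma voom 0. Means were higher for 64 and lower for 55 of them, and with library totals in place of scaling factors for 80 and 39, a setting that moved the median of all genes to 0.03. In the families of the members, several relatives had means on the other side, each short of the threshold. Beside Thbs1, the angiogenesis inhibitor Thbs2 averaged 43.4 ± 8.9 CPM in the multiparous against 36.8 ± 3.5 CPM in the virgin group (a log2 difference of 0.24, edgeR adjusted p = 0.563), and Comp, cartilage oligomeric matrix protein, 5.21 against 3.49 CPM (0.58, edgeR adjusted p = 0.679). Beside Tnc, Tnxb, the tenascin of loose connective tissue, measured 234 ± 42 against 187 ± 26 CPM (0.32, edgeR adjusted p = 0.315) and the neural Tnr 0.405 against 0.302 CPM. Beside Timp1, the constitutive Timp2 measured 118.5 ± 15.2 against 101 ± 13 CPM (0.23, edgeR adjusted p = 0.482) and Timp3 244 against 235 CPM. Beside Sparc, its relatives Smoc1 and Sparcl1 measured 6.04 against 3.41 CPM and 299 against 284 CPM (edgeR adjusted p of 0.49 and 0.827), and beside Postn, Tgfbi measured 25.4 against 23.4 CPM (0.807). The thrombospondin list had 4 of 5 means higher, the tenascins 2 of 3, the TIMPs 3 of 4 and the SPARC family 4 of 6 (5 of 6 with library totals), with Thbs1, Tnc, Timp1 and Sparc on the lower side. Spock1, Spock3, Tnn and Cilp2 were too low to be tested.

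Of the 119 genes, a receptor came nearest the threshold. Itga9, an integrin chain that binds tenascin C and osteopontin, ranged over 70.3 to 89.3 CPM among multiparous hearts, against 81.3 to 123 CPM among virgin hearts (a log2 difference of −0.36, SE 0.07, edgeR adjusted p = 0.0768). Sdc4, syndecan 4, a fibronectin coreceptor of focal adhesions, measured 30.5 ± 5.0 against 21.9 ± 4.6 CPM (0.47, edgeR adjusted p = 0.158). Of the 22 receptors, 11 means were higher and 11 lower, or 14 and 8 with library totals. At an unadjusted p under 0.05 stood 8 of them (36.4%), against 8.12% of all genes, in a list chosen with earlier results known. Spp1, osteopontin, was the widest difference, at 0.154 to 1.00 CPM among multiparous hearts, against 0.364 to 19.5 CPM among virgin hearts (−3.36, SE 0.75, edgeR adjusted p = 0.112). Spp1 is abundant in kidney, and the highest library, virgin 1, held 114.8 CPM of kidney tubule markers. The highest kidney sum, 129.6 CPM, was that of virgin 3. Virgin 1 also had the highest macrophage marker sum of the 16 libraries, at 374 CPM. The part of either in the difference was not tested. Ccn1, an early growth-response matricellular protein of the same list, measured 47.5 against 59.8 CPM (edgeR adjusted p = 0.657).

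Enzymes that process and crosslink collagen were even in direction, with 9 of 18 means higher and 9 lower and a median log2 fold change of 0.0003. With library totals 12 were higher and 6 lower. Pcolce2, which enhances procollagen trimming, measured 18 ± 1.9 against 15 ± 1.1 CPM (0.26, edgeR adjusted p = 0.175), and Fkbp10, a collagen chaperone, 17.9 against 16.3 CPM (edgeR adjusted p = 0.631). Of the matrix proteases, 11 means were higher and 11 lower, or 16 and 6 with library totals. The aggrecanases Adamts5 (59.7 against 50.5 CPM) and Adamts1 (37.1 against 44.1 CPM) went to opposite sides, with edgeR adjusted p of 0.315 and 0.38. Transforming growth factor beta signalling genes had 14 of 20 means higher and a median of 0.03. Among them the coreceptor Tgfbr3 measured 104.8 against 94.4 CPM (edgeR adjusted p = 0.61). Markers of activated fibroblasts and myofibroblasts had 15 of 22 means lower (12 with library totals) and a median of −0.09, among them the collagen Col12a1 (1.87 ± 0.22 against 2.85 ± 1.25 CPM) and the fibroblast activation factor Meox1 (13.7 ± 2.2 against 17.2 ± 3.6 CPM), with edgeR adjusted p of 0.352 and 0.448.

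**Figure D5:**
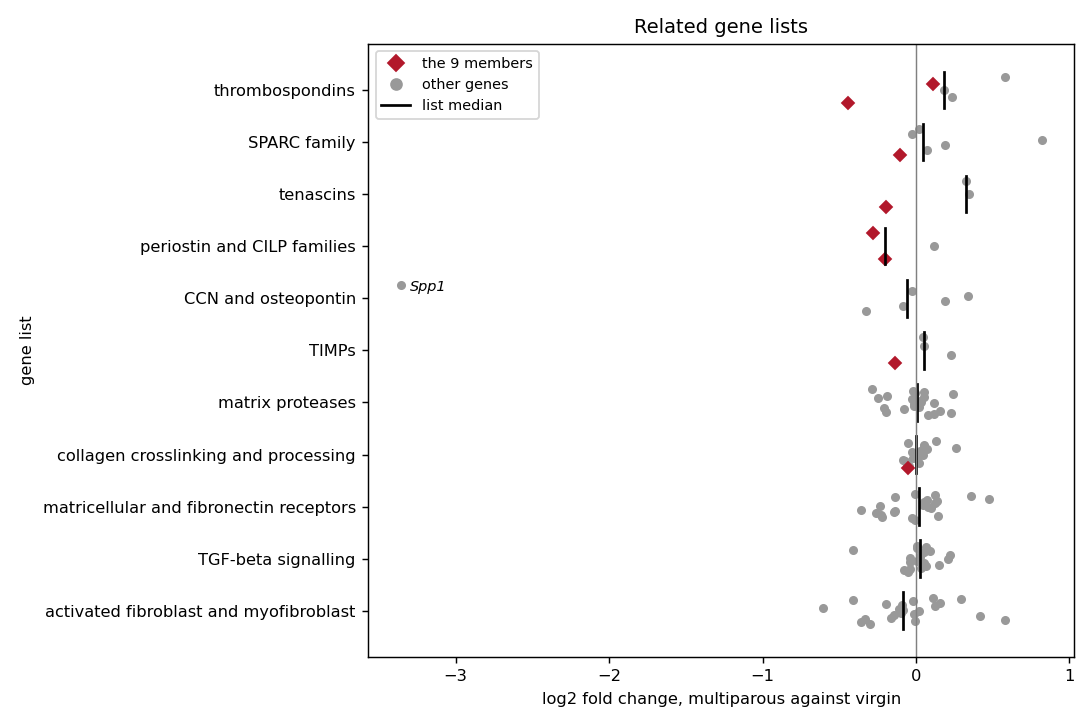
Log2 fold change, multiparous against virgin (x axis), of every tested gene of 11 related lists (rows), with the members as red diamonds, other genes as grey circles and the list median as a black line. The medians of all lists but the tenascins (0.32), the periostin and CILP families (−0.20) and the thrombospondins (0.18) lie within 0.1 of 0, and Spp1 at −3.36 stands apart.

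Between the library codes, 0 of the same 119 genes passed and 15 (12.6%) had an unadjusted p under 0.05, against 9.18% of all genes. The same limit on the choice of the lists holds for this share. DESeq2, which called 99 of all 17813 genes here, called 1 of the 119 (Timp3) and limma voom 0. All 4 TIMPs had higher means in MP-coded hearts, which also held more of the kidney tubule and mesothelial markers given above, and the part of Timp1 was 0.02 without multiparous 6 (log2). Timp3, the matrix-bound inhibitor, had the smallest adjusted p of the 4, at 278 ± 49 CPM with code MP against 209 ± 20 CPM with code P (a log2 difference of 0.41, edgeR adjusted p = 0.212). Thbs2 measured 49.1 against 37.7 CPM (edgeR adjusted p = 0.288), the testican Spock2 22.9 against 13.6 CPM (0.407) and Ccn5 4.00 against 2.21 CPM (0.487). On the other side lay the epithelial integrin chain Itgb6 at 33.3 against 47.7 CPM (0.237), Mmp14, the membrane-bound collagenase, at 21.2 against 26.6 CPM (0.344) and Ltbp1 at 77.0 against 92.2 CPM (0.309). Smad7, the feedback inhibitor of transforming growth factor beta signalling, measured 52.9 against 39.2 CPM (0.316).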

How the data were processed

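RNA of 16 left ventricular mid sections was sequenced as stranded, ribosome-depleted total RNA, in paired reads, per the labels' protocols. The submitters' processing notes list STAR 2.7.11b, HTSeq 0.11.1 and SAMtools 1.19.2, beside bcl2fastq 2.20, FastQC 0.12.1, cutadapt 4.8 and Trim Galore 0.6.10, and the build GRCm38.p6. Which annotation was counted, and with which strand setting, is not given in the sources used, so reads of overlapping genes on opposite strands cannot be told apart. The deposited values are raw counts per gene. Rows naming no gene held 26.5 to 33.1% of each file and were left out of library totals. The lowest count of any member was 24 (Timp1), and the 95% intervals of fold changes come from the spread between libraries in the fit.

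Counts were scaled by TMM, filtered with filterByExpr and tested with edgeR 4.0.16 (R 4.3.3), by group and, in a second fit, by library code, with Benjamini-Hochberg adjustment over all genes and a threshold of 0.05. DESeq2 1.42.0 and limma 3.58.1 voom were alternatives. Log2 CPM used a prior count of 2. Correlations used 100000 two-sided permutations within groups. Exon lengths came from GENCODE M21, whose versioned IDs matched 98.1% of the deposited ones. The fit was tested on simulated data. No 2 libraries of a group agreed within sampling noise (lowest chi-square per degree of freedom 8.93). Hearts are numbered in the labels as separate samples, and p-values measure the spread between them.

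The members and all lists were chosen with earlier results of these data known. Of the 3 genes most like each member, all are named for Thbs1, Timp1 and Tnc, and only the nearest for the others. Also named in the text are all members and the 2 genes with the smallest p of each list that had no call, apart from members. Between the codes only part of the genes so named is given. A further gene so named is not reported here. Alternatives changed scaling, filter, tool, threshold, covariates, replicate block and libraries left out. The Lox promoter and proteins were not used here.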

Additional observations from a re-analysis of the deposited data

Results flagged for a closer look

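Of the 18 groups of 8 values (9 genes in 2 groups), 4 held a library whose gap to its nearest neighbour took up more of the group's range than Dixon's 95% critical value of 0.526 allows. Chance gives about 1 in 20 where values are normally distributed, and here CPM without a log were used. The 18 groups are also not independent. Within multiparous hearts r was 0.956 for Tnc with Timp1, 0.815 for Cilp with Timp1 and 0.69 for Cilp with Tnc. The 4 cases are thus a description and not a test. Multiparous 6 was such a library for 3 genes, with gaps of 0.673 of the range for Tnc (6.11 CPM), 0.658 for Cilp (32.3 CPM) and 0.651 for Timp1 (2.35 CPM). Virgin 7 was the fourth case, with a gap of 0.599 for Thbs4 (8.15 CPM).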

How the results depend on the processing

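None of the 9 genes passed in any alternative of either comparison. Between multiparous and virgin hearts 267 of 279 single-gene values kept their direction, and between the codes 120 of 126 did. The number of genes called over the whole table, 2 between multiparous and virgin hearts, was 0 with library totals, robust edgeR or the kidney, fibroblast or platelet covariate, 56 with no filter, 130 by DESeq2, 39 at an adjusted p under 0.1, 4 without multiparous 6 and virgin 1 together, 97 with the P-coded and 0 with the MP-coded multiparous libraries alone, and 0 to 55 leaving out 1 library, with the highest number without virgin 7. With the replicate block it was 33, and 0 members. Same-numbered libraries did not deviate together (r of −0.106 to 0.291, over 0.1 in 1 of 8 pairs), and 1 of 8 multiparous libraries correlated best with its own number. Between the codes, the 2 genes called became 0 with library totals, 99 by DESeq2, 22 with the 8 multiparous libraries alone and 0 to 27 leaving out 1 library. The cause was not tested. Among the correlated pairs, 6 became 14 with library totals and 0 without multiparous 6 and virgin 1.

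Directions turned for Thbs4 (−0.219), Tnc (0.0474), Sparc (0.0402), Timp1 (0.247) and Lox (0.1) with the kidney covariate, for Thbs4 (−0.174) and Fn1 (−0.0651) with the fibroblast covariate, for Tnc (0.0267), Timp1 (0.0620) and Lox (0.124) with MP-coded libraries alone, and for Timp1 (0.0633) and Lox (0.0126) without virgin 1 (log2). Between the codes they turned for Thbs1 (0.0144) and Sparc (0.0776) without multiparous 1, for Thbs4 without multiparous 3 (0.0689), 4 (0.0730) or 7 (0.162), and for Tnc (−0.0418) without multiparous 6. Leaving out 1 library, Timp1 ranged over −0.344 to 0.0633 and Lox over −0.133 to 0.0126 between multiparous and virgin hearts, and between the codes Thbs1 over −0.285 to 0.0144, Sparc over −0.186 to 0.0776, Thbs4 over −0.125 to 0.162 and Tnc over −0.0418 to 0.627. Timp1 had the fewest counts of the 9 genes, 24 in its lowest library.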
